A study of Mus musculus with 4 samples.

Results

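The transcription factors of the secretory lineage of the intestinal epithelium were followed through the cell classes of small intestinal crypts: Atoh1, Spdef, Gfi1, Sox9, Creb3l1, Creb3l4, Bhlha15, Foxa3, Spib and Klf4. These 10 genes were taken by symbol, each as 1 row, from the 27998 genes counted in each of the 4 single cell libraries. They were compared between genotypes and between classes of cells. The classes were set by alpha-defensins and marker genes, and none of the 10 factors was among those genes.

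In the crypt, a progenitor escapes lateral inhibition through Notch and Hes1, keeps Atoh1, a basic helix-loop-helix factor, and enters the secretory branch, from which Paneth, goblet, enteroendocrine and tuft cells descend. Gfi1, a zinc finger repressor that acts after Atoh1, separates the Paneth and goblet fates from the enteroendocrine fate, Spdef, an ETS factor, drives the maturation of goblet and Paneth cells, and Sox9, an HMG box factor, is needed for Paneth cells and is also present in crypt progenitors. Foxa3 is a forkhead factor of the endoderm, Klf4 a zinc finger factor of goblet cells, Creb3l1 and Creb3l4 are bZIP factors held in the membrane of the endoplasmic reticulum until they are cleaved, Bhlha15 (Mist1) scales up the secretory apparatus of professional secretory cells, and Spib is an ETS factor known from M cells and tuft cells.

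Droplet libraries of the 10x Genomics 3′ chemistry had been made from live EpCAM positive, CD45 negative cells, sorted from crypt preparations of the small intestine of mice at an age of 8 weeks. The 2 libraries of the control group came from Slc7a5 fl/fl mice, which carry a floxed Slc7a5 and no Cre, and the 2 libraries labelled IEC-KO, written Slc7a5 ΔIEC here, from mice in which villin-Cre, active along the whole intestinal epithelium, deletes the floxed exon; both groups carry the floxed allele and were sex- and age-matched, cohoused littermates. The sample records name 4 mice without dividing them among libraries, so the p-values below measure the spread between libraries only. Slc7a5 itself, the amino acid transporter gene that was targeted, was at 1.23 and 1.07 CPM (UMIs of the gene scaled to a common total of all UMIs) in the fl/fl libraries and at 3.98 and 4.84 CPM in the ΔIEC libraries. Relative to all UMIs, the libraries labelled ΔIEC thus held more Slc7a5 UMIs, not fewer. These values are over all cells, and the mix of cell classes, defined below, differed. Paneth-like cells made up 55.6% and 60.6% of cells in fl/fl and 20.2% and 24.2% in ΔIEC. In fl/fl library 1, Slc7a5 stood at 0.964 CPM in Paneth-like, 2.67 CPM in goblet-like, 3.23 CPM in cycling and 1.58 CPM in enterocyte-like cells. Its tuft-like cells held 1 Slc7a5 UMI and its enteroendocrine-like cells 0. The part of this mix in the Slc7a5 values was not tested. Counts at the 3′ end do not show whether the floxed exon is present, and all directions given below rest on the labels.

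The fl/fl libraries held 3633 and 3217 cells and the ΔIEC libraries 10004 and 9644 cells, with median unique molecular identifiers (UMIs, each standing for a captured transcript) per cell of 22242 and 32549 against 6699.5 and 9717.5. At most 132 cell barcodes were shared by any pair of libraries. Cells with 30% or more of their UMIs in genes whose symbols start with Defa (alpha-defensins, the antimicrobial peptides of Paneth cells) are called Paneth-like, and cells under 20% were named from marker genes. There were 2020 and 1950 Paneth-like cells in fl/fl and 2019 and 2336 in ΔIEC, and 832 and 652 goblet-like cells in fl/fl against 4234 and 3993 in ΔIEC. The cycling class held 267 to 553 cells per library, the enterocyte-like class 90 to 278, the tuft-like class 13 to 83 and the enteroendocrine-like class 6 to 83. Each class had between 3 and 9 of its own markers and none of another class among its 10 leading genes in both genotypes. The classes were set by these same genes, so this describes them and is no separate check. For Paneth-like cells the 5 markers counted were all alpha-defensins. The 9 enteroendocrine-like cells of fl/fl library 1 stood apart, with a median of 69 enteroendocrine marker UMIs but 264 goblet marker UMIs per 3800. Paneth-like cells differed in depth between genotypes, with median totals of 46965 and 52851.5 UMIs in fl/fl and 13782 and 20159 in ΔIEC. Levels are therefore given as UMIs per 1000 cells after every cell had been thinned to 3800 UMIs, and tests are on the unthinned sums of each library.

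Promoter sequences are shown for 3 factors on which the results in Paneth-like cells turn: Atoh1 and Spdef, which were higher in ΔIEC relative to the typical gene, and Bhlha15, which was lower on that scale. They are the 250 bases before the RefSeq start (build GRCm38.p6), 5′ to 3′ on the strand of the gene, with matches to the searched letters in capitals. Atoh1, shown first, lies at chr6:64728875-64729124 on the plus strand, Spdef at chr17:27728952-27729201 on the minus strand and Bhlha15 at chr5:144190036-144190285 on the plus strand.
Atoh1: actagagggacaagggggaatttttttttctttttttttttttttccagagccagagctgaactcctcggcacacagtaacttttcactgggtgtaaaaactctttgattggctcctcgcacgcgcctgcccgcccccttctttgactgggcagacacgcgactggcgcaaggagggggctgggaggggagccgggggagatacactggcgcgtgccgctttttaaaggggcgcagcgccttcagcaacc
Spdef: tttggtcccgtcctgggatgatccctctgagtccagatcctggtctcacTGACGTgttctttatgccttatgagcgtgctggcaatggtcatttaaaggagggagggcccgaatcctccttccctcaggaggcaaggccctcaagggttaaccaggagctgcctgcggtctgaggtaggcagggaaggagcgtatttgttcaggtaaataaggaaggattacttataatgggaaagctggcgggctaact
Bhlha15: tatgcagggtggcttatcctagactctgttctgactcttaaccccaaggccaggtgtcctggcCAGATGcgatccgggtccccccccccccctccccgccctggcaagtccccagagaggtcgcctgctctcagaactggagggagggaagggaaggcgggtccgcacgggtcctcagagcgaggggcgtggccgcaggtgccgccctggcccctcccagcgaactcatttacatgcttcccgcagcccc
The letters searched on both strands were CAGCTG (its own reverse complement) and CAGATG, forms of the E-box that helix-loop-helix factors such as ATOH1 bind, and TGACGT, the core of the cyclic AMP response element bound by CREB factors. In the printed windows, CAGATG stands in the Bhlha15 promoter, TGACGT in the Spdef promoter and none of them in the Atoh1 promoter. Of 32851 promoters of this length, 4271 held CAGCTG, 14.4% held CAGATG and 6.47% held TGACGT. The 8 factors with an entry have 11 such windows, since Creb3l4 and Gfi1 have more than 1 start. Klf4 held CAGCTG, Bhlha15, Spib and 1 window of Creb3l4 held CAGATG and Spdef held TGACGT, so that 5 of the 11 windows held any of them, against 30.6% of all promoters. Sox9 and Creb3l1 had no entry.

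At equal depth, 7 of the 10 factors had their highest mean level in goblet-like cells in both genotypes: Atoh1, Spdef, Gfi1, Creb3l1, Creb3l4, Foxa3 and Klf4. Atoh1 stood at 459 and 456 UMIs per 1000 goblet-like cells in the fl/fl libraries and at 502 and 519 in the ΔIEC libraries. Cycling cells followed with 368 and 330 in fl/fl and 392 and 370 in ΔIEC. Of the 337 and 267 cycling cells in fl/fl, 135 and 96 also met the marker rule of another class. In ΔIEC, 203 of 553 and 199 of 543 did. Enterocyte-like cells, the absorptive class that should lack the factor, held 53.6 and 55.6 in fl/fl and 104 and 146 in ΔIEC. Goblet-like cells were above cycling cells in every library, and Paneth-like cells, described below, lay between cycling and enterocyte-like cells. The enteroendocrine-like and tuft-like classes could not be ordered in fl/fl, where their 6 to 15 cells per library gave 1 to 3 Atoh1 UMIs.

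Spib was highest in tuft-like cells in each library, and Sox9 in 3 of the 4 libraries. Spib stood at 308 and 267 UMIs per 1000 tuft-like cells in fl/fl and at 482 and 383 in ΔIEC. In Paneth-like cells the Spib level was between 3.96 and 5.94 in all 4 libraries, and in goblet-like cells between 3.61 and 4.76. The share of cells with a Spib UMI was 20.0% to 36.1% in tuft-like cells and at most 0.594% in Paneth-like cells. Spib thus marked the tuft-like class in each library, although in fl/fl this rests on 4 UMIs per library. Sox9 reached 231 and 533 UMIs per 1000 tuft-like cells in fl/fl and 458 and 702 in ΔIEC, against 189 to 326 in goblet-like and cycling cells. In fl/fl library 1 the tuft-like value, from 3 UMIs in 13 cells, was close to the 228 of cycling cells and below the 333 of enteroendocrine-like cells, also from 3 UMIs, so tuft-like cells were the highest of the 6 classes in the other 3 libraries only.

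At 3800 UMIs per cell, Bhlha15 had no class far above the rest among those with more than 20 cells per library. Paneth-like cells held 55.4 and 52.3 UMIs per 1000 cells in fl/fl and 65.4 and 52.2 in ΔIEC. Goblet-like cells held 46.9 and 36.8 in fl/fl and 34.2 and 35.3 in ΔIEC. Paneth-like cells were above goblet-like cells in each library, and enterocyte-like cells, with 9.13 to 66.7, overlapped both. With cells thinned to 1000 UMIs outside the alpha-defensins, Paneth-like cells held 29.2 and 33.3 in fl/fl and 29.7 and 30.8 in ΔIEC. Goblet-like cells held 13.2 and 7.67 in fl/fl and 8.50 and 12.5 in ΔIEC, and enterocyte-like cells at most 4.57. Cycling cells had means of 2.97 in fl/fl and 3.63 in ΔIEC. On that scale Paneth-like cells were the highest of these classes. The shares of cells with a UMI show where the equal-depth level stays near that of the absorptive class. For Klf4, 5.35% and 5.44% of fl/fl Paneth-like cells and 7.78% and 9.80% of those in ΔIEC had a UMI, below the 10.7%, 7.78%, 10.8% and 10.5% of enterocyte-like cells in the same libraries. Whether Klf4 UMIs in either class are background RNA was not tested. With 1000 UMIs outside the alpha-defensins, fl/fl Paneth-like cells held 25.7 and 30.3 Klf4 UMIs per 1000 cells and enterocyte-like cells 17.9 and 33.3. In ΔIEC the values were 45.6 and 59.1 against 46.8 and 41.1, so the classes overlapped. For Creb3l1 the Paneth-like share was also the lower one in fl/fl, with 4.70% and 4.41% of Paneth-like against 7.14% and 4.44% of enterocyte-like cells, but not in ΔIEC, with 12.8% and 14.4% against 6.83% and 9.59%. With 1000 UMIs outside the alpha-defensins, Creb3l1 stood at 25.2 and 30.8 UMIs per 1000 fl/fl Paneth-like cells. Enterocyte-like cells held 8.93 and 22.2 there, from few UMIs in 112 and 90 cells, so the fl/fl order depends on the scale. For Foxa3 the Paneth-like share was above the enterocyte-like share in every library, at 25.2% and 21.8% against 16.1% and 15.6% in fl/fl and 45.5% and 43.1% against 17.3% and 20.5% in ΔIEC. All cells in these shares held 3800 UMIs after thinning; the unthinned medians of enterocyte-like cells were 10366 and 11287 in fl/fl and 5305 and 7435 in ΔIEC.

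**Figure D1:**
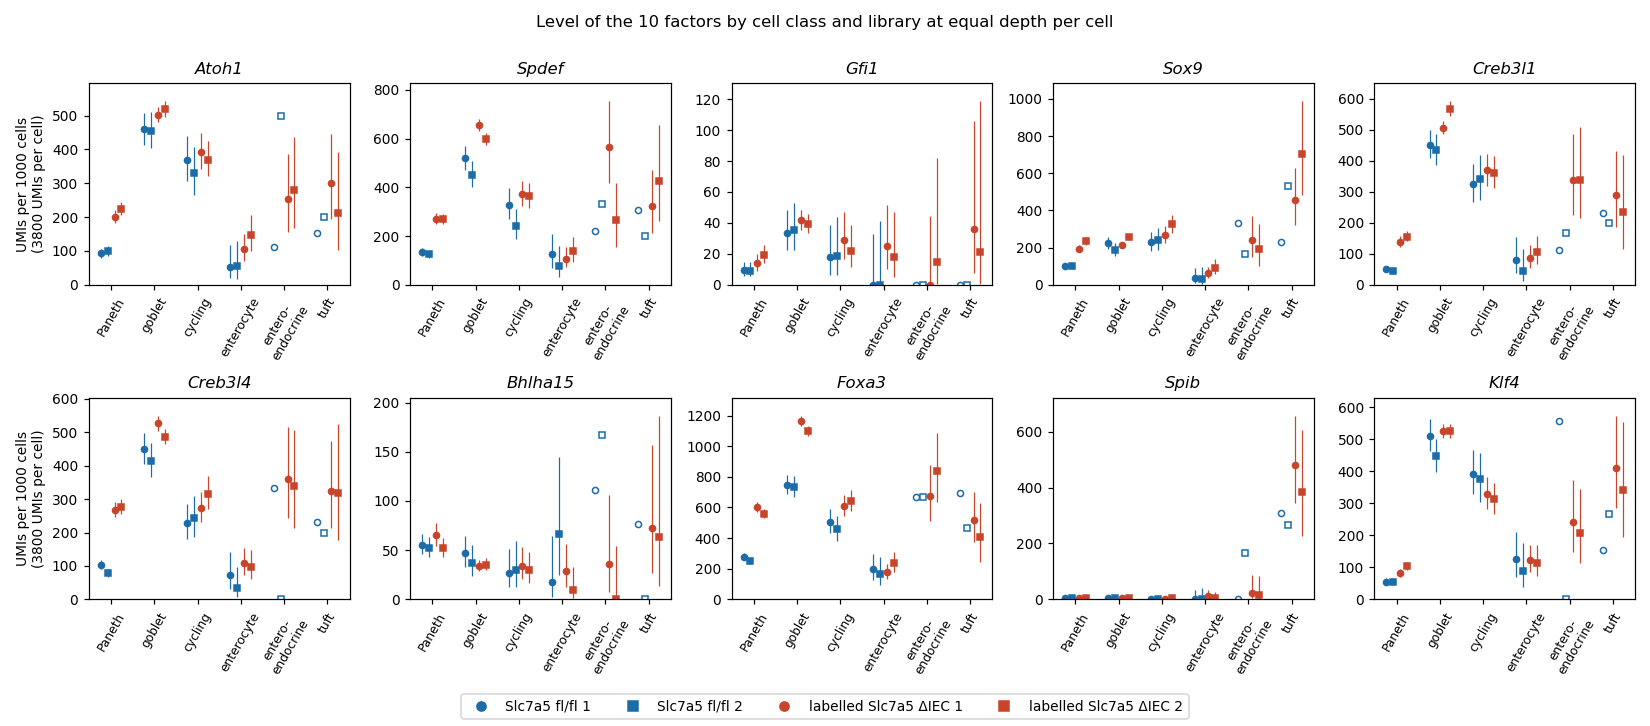
Level of each factor (y axis, UMIs per 1000 cells with every cell thinned to 3800 UMIs) by cell class (x axis) in the 2 fl/fl libraries (blue) and the 2 libraries labelled ΔIEC (red). Bars are 95% Poisson intervals, which cover counting error only, and open symbols without a bar are classes of under 20 cells in that library. Spib stood at 267 to 482 in tuft-like cells and at most at 5.94 in Paneth-like cells, and Atoh1 at 456 to 519 in goblet-like cells.

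Paneth-like cells of the ΔIEC libraries held more UMIs of most of the factors at equal depth. Both ΔIEC libraries lay above both fl/fl libraries for 8 of the 10 factors and below them for none, which was also the case for 66.4% and 6.02% of the 12492 genes tested. The median ratio of ΔIEC to fl/fl was 2.12 for the factors and 1.55 for all tested genes, and 8 of the 10 factors were above the median of all genes. A rise at equal total depth was therefore general in these cells, and the tests below are relative to the typical gene (TMM scaling). On that scale 7 factors were higher in ΔIEC and 1 was lower, at an adjusted p under 0.05 by the quasi-likelihood test of edgeR, where 39.9% of all tested genes were called, 20.1% higher and 19.8% lower. The median log2 fold change was 0.51 for the factors and close to 0 for all genes. Scaled by library size only, all 10 factors and 8795 of all genes were called higher and 454 genes lower, in place of 2515 higher and 2475 lower.

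Creb3l1 and Creb3l4, the factors of the endoplasmic reticulum membrane, had the largest differences. Creb3l1 stood at 49.5 and 45.1 UMIs per 1000 Paneth-like cells in fl/fl (47.3 ± 3.09, SD, n = 2) and at 139 and 155 in ΔIEC (147 ± 11.5, n = 2). Its log2 fold change relative to the typical gene was 0.90 ± 0.07 (SE; 95% interval 0.75 to 1.05, adjusted p 2.26e-09). Both ΔIEC libraries were about 3 times as high as the fl/fl libraries at equal depth, without overlap. Creb3l4 stood at 104 and 78.5 UMIs per 1000 cells in fl/fl and at 268 and 277 in ΔIEC. Its log2 fold change was 0.87 ± 0.07 (95% interval 0.72 to 1.01, adjusted p 2.47e-09). The unthinned number of UMIs per Paneth-like cell overlapped between genotypes for this pair, at 0.573 and 0.617 in fl/fl against 0.478 and 0.843 in ΔIEC for Creb3l1 and at 1.20 and 1.20 against 1.06 and 1.496 for Creb3l4.

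Of the factors of secretory fate, Atoh1, Spdef and Sox9 were higher and Gfi1 did not pass the test. Atoh1 stood at 92.6 and 98.5 UMIs per 1000 Paneth-like cells in fl/fl (95.5 ± 4.16, SD, n = 2) and at 202 and 224 in ΔIEC (213 ± 16.1, n = 2). In the sums that were tested it was at 29.4 and 27.7 CPM in fl/fl and at 44.2 and 42.9 CPM in ΔIEC, a log2 fold change of 0.61 ± 0.07 (95% interval 0.47 to 0.75, adjusted p 2.31e-07). Cells with an Atoh1 UMI made up 8.51% and 9.59% of Paneth-like cells in fl/fl and 18.1% and 19.8% in ΔIEC. The ΔIEC libraries were above the fl/fl libraries on all 3 scales. In enterocyte-like cells of the same libraries that share was 5.36% and 4.44% in fl/fl and 9.35% and 12.3% in ΔIEC, so the level in the class taken as background moved in the same direction; its part in the difference was not tested. Goblet-like cells, the class with the highest Atoh1 level, made up 22.9% and 20.3% of all cells in fl/fl and 42.3% and 41.4% in ΔIEC. Before thinning, Paneth-like cells held 1.15 and 1.15 Atoh1 UMIs per cell in fl/fl and 0.818 and 1.24 in ΔIEC, with the ΔIEC libraries on either side of fl/fl.

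Spdef stood at 134 and 126 UMIs per 1000 Paneth-like cells in fl/fl and at 270.4 and 270.1 in ΔIEC, with a log2 fold change of 0.56 ± 0.07 (adjusted p 7.03e-07). Sox9 stood at 99.5 in both fl/fl libraries and at 194 and 236 in ΔIEC, with a log2 fold change of 0.54 ± 0.07 (adjusted p 4.44e-06). Neither gene overlapped between genotypes. Gfi1 was low, at 9.41 and 9.23 in fl/fl and 13.9 and 19.3 in ΔIEC, and its log2 fold change of 0.32 ± 0.13 missed the threshold (95% interval 0.05 to 0.59, adjusted p 0.0516).

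Foxa3 and Klf4, the factors of goblet cells, were both called higher, and the Klf4 call was fragile. Foxa3 stood at 278 and 249.7 UMIs per 1000 Paneth-like cells in fl/fl (264 ± 20.1, n = 2) and at 603 and 558 in ΔIEC (581 ± 31.9, n = 2), with a log2 fold change of 0.49 ± 0.07 (adjusted p 6.64e-06). Klf4 stood at 55.0 and 55.4 in fl/fl and at 82.2 and 104 in ΔIEC, with a log2 fold change of 0.35 ± 0.07 (adjusted p 0.000414). The libraries of each genotype did not overlap for either gene. With cells thinned to 3800 UMIs before the test, the Klf4 log2 fold change was 0.08 (adjusted p 0.711), and with Paneth-like cells limited to 40% or more alpha-defensin UMIs it was 0.21 (adjusted p 0.108), so its call did not hold. The summed level of 11 goblet markers was nearly level in Paneth-like cells, with medians of 61 and 57 UMIs of 3800 in fl/fl and 58 and 68 in ΔIEC.

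Bhlha15 was the only factor called lower in Paneth-like cells. In the tested sums it was at 15.3 and 15.4 CPM in fl/fl and at 12.9 and 10.8 CPM in ΔIEC, a log2 fold change of -0.39 ± 0.08 (95% interval -0.56 to -0.22, adjusted p 0.000713). At equal total depth the genotypes overlapped, as given above, and with scaling by library size only the sign turned, to 0.23 (adjusted p 0.0289). The unthinned number per cell was 0.597 and 0.636 UMIs in fl/fl and 0.239 and 0.312 in ΔIEC. The fall is therefore relative to the typical gene of these cells and is not seen as a fall in the share of all UMIs. Spib, with 204 UMIs in fl/fl and 125 in ΔIEC over the whole class, gave -0.08 ± 0.20 (95% interval -0.50 to 0.34, adjusted p 0.779).

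**Figure D2:**
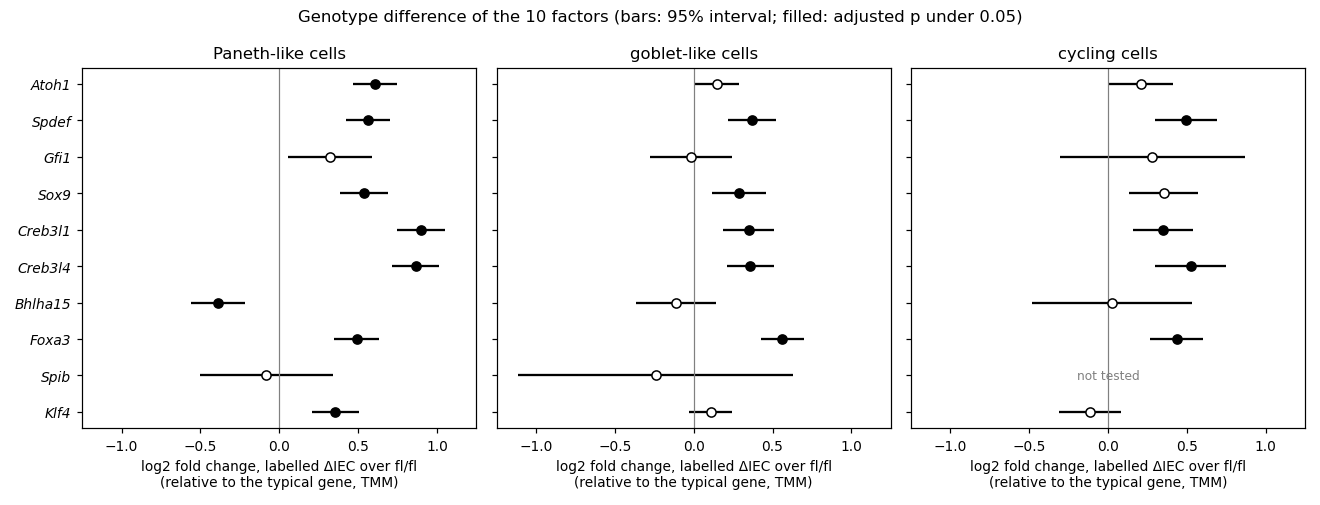
Log2 fold change of ΔIEC over fl/fl relative to the typical gene (x axis) of each factor (y axis) in Paneth-like, goblet-like and cycling cells, from sums of 2 libraries per genotype. Bars are 95% intervals and filled points have an adjusted p under 0.05. In Paneth-like cells 7 factors were called above 0 and Bhlha15 below it at -0.39, while in goblet-like cells 5 factors were called, with Foxa3 at 0.56.

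The level of several factors changed with the share of alpha-defensins in a cell, and the genotypes were compared at matched shares of the 13 symbols starting with Defa. Below 5% alpha-defensin UMIs, cells thinned to 3800 UMIs held 356 and 292 Atoh1 UMIs per 1000 in fl/fl and 447 and 455 in ΔIEC. Atoh1 was higher at 5 to 10%, at 472 and 509 in fl/fl and 508 and 539 in ΔIEC. From there it fell to 77.5 and 90.6 at 40 to 50% in fl/fl and to 152 and 172 in ΔIEC. Part of such a fall is fixed by arithmetic, as alpha-defensins fill the thinned cell, so the same was read with each cell thinned to 1000 UMIs outside the alpha-defensins. That thinning leaves out all 22 alpha-defensin symbols of GENCODE M21, while the share counts 13. On this scale Atoh1 at 40 to 50% alpha-defensins stood at 58.5 and 51.3 UMIs per 1000 cells in fl/fl and at 108 and 93.3 in ΔIEC. Foxa3 stood there at 160 and 164 in fl/fl and at 325 and 323 in ΔIEC. Both ΔIEC libraries were above both fl/fl libraries for both genes at this share. The same held for Spdef, Sox9, Creb3l1, Creb3l4, Klf4 and, as given below, Bhlha15, while Gfi1 and Spib overlapped. How many of all genes lay so at this share is not given here. It is matched for the 13 symbols only: by all 22, Paneth-like cells numbered 2102 and 2007 in fl/fl and 2830 and 3122 in ΔIEC. The range held 1316 and 1656 fl/fl cells, with median totals of 49700 and 54803.5 UMIs. In ΔIEC it held 400 and 418 cells, with medians of 17204.5 and 28490. Foxa3 in ΔIEC lay between 274 and 325 in all 6 ranges of alpha-defensin share, and in fl/fl between 149.5 and 289.7. The fl/fl extremes came from 301 cells of library 1 and 145 cells of library 2. No ΔIEC range held fewer than 400 cells, so the spreads are not alike in counting error. The 18 cells above 50%, all in fl/fl library 2, are left out here. Bhlha15 ran the other way, from 2.87 to 13.6 below 10% to 28.9 and 30.2 in fl/fl and 37.5 and 33.5 in ΔIEC at 40 to 50%. There both ΔIEC libraries lay above both fl/fl libraries, from few UMIs in the 400 and 418 ΔIEC cells. The test relative to the typical gene over all Paneth-like cells had called Bhlha15 lower. In the test restricted to cells of 40 to 50%, 7 of the 10 factors were called, as Klf4 was lost at 0.21 (adjusted p 0.107). Over all Paneth-like cells 39.9% of all tested genes were called, and the share in the restricted test is not given here. Cells within 2 percentage points of the 30% limit numbered 73 and 44 in fl/fl and 590 and 561 in ΔIEC.

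**Figure D3:**
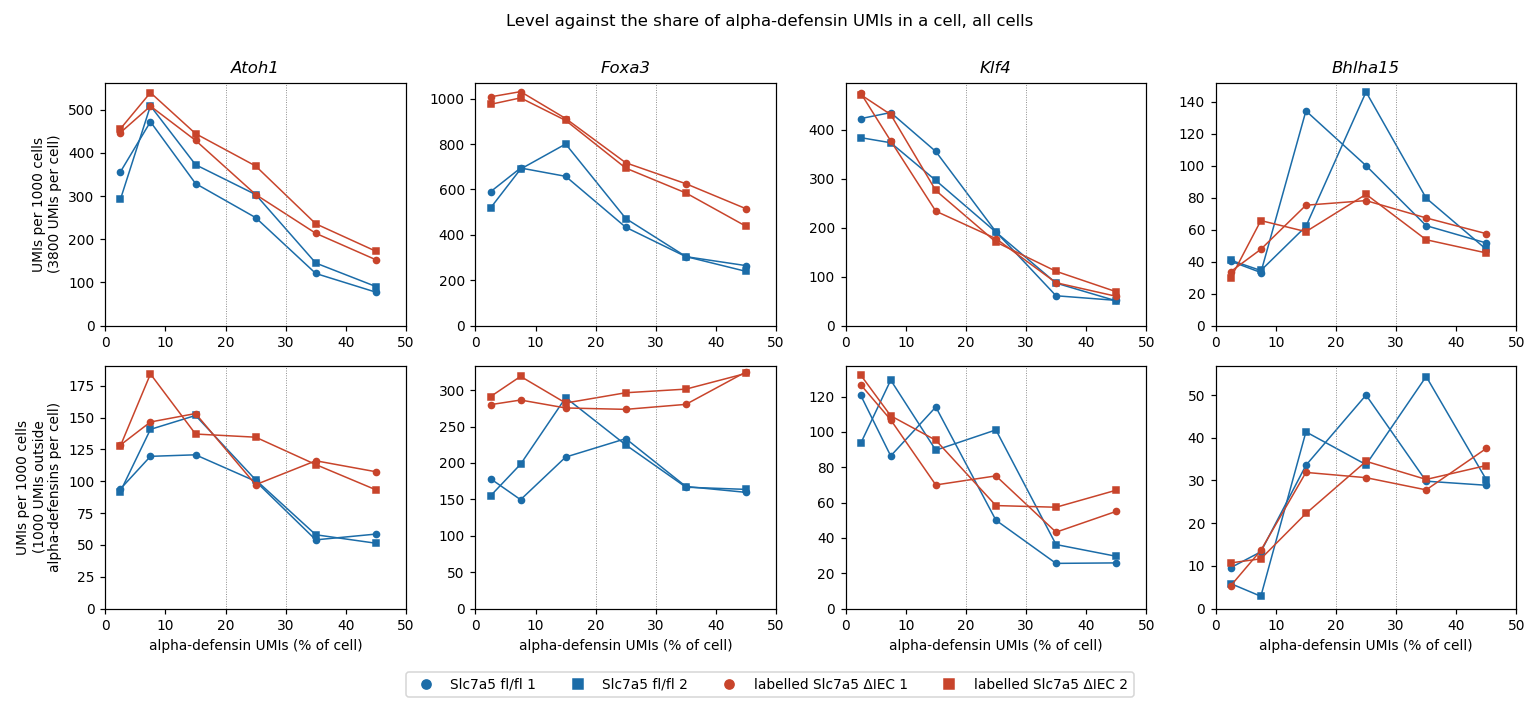
Level of Atoh1, Foxa3, Klf4 and Bhlha15 (y axes, UMIs per 1000 cells) against the share of alpha-defensin UMIs in a cell (x axis, percent of the cell's UMIs), with cells thinned to 3800 UMIs (upper row) or to 1000 UMIs outside the alpha-defensins (lower row), for the 2 fl/fl libraries (blue) and the 2 ΔIEC libraries (red). The share counts the 13 symbols starting with Defa in the files, and the lower row leaves out all 22 of GENCODE M21. Dotted lines mark 20% and 30%. At 40 to 50% in the lower row, Foxa3 stood at 160 and 164 in fl/fl and at 325 and 323 in ΔIEC.

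Paneth-like cells with and without an Atoh1 UMI at 3800 UMIs were set side by side as a description. At a level of 202 and 224 UMIs per 1000 cells in ΔIEC, a cell without an Atoh1 UMI is not shown to lack the transcript, so the split cannot show whether Atoh1 marks a separate set of cells. In ΔIEC, 23.2% and 24.6% of Paneth-like cells with an Atoh1 UMI also had a Spdef UMI, and so did 23.2% and 23.3% of those without one. For Foxa3 these shares were 46.4% and 44.1% with Atoh1 and 45.3% and 42.9% without. For Lgr5, a marker of stem cells, they were 1.91% and 3.02% with Atoh1 and 2.18% and 2.78% without, and for Mki67, a marker of proliferation, 3.28% and 3.46% with and 3.15% and 3.47% without. In fl/fl, with 172 and 187 Atoh1 cells, the Spdef shares were 13.4% and 11.8% with Atoh1 and 12.3% and 11.9% without. For Foxa3 they were 23.3% and 20.9% with and 25.4% and 21.9% without. The fl/fl Lgr5 shares, from 1 and 4 Atoh1 cells, were 0.581% and 2.14% with and 1.14% and 0.794% without. For Mki67, from 7 and 0 Atoh1 cells, they were 4.07% and 0% with and 4.65% and 3.52% without. The Lgr5 order thus differed between the fl/fl libraries.

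Goblet-like cells showed a smaller set of differences. Of the 10 factors, 5 were higher in ΔIEC and none lower, where 21.7% of 11450 tested genes were called, 10.9% higher and 10.8% lower. At equal depth 7 factors lay above fl/fl in both ΔIEC libraries and 1, Bhlha15, below it, where 25.5% and 27.2% of all genes did. Foxa3 led, at 748 and 733 UMIs per 1000 cells in fl/fl (740 ± 10.2, SD, n = 2) and 1164 and 1101 in ΔIEC (1133 ± 44.7, n = 2). Its log2 fold change was 0.56 ± 0.06 (95% interval 0.43 to 0.70, adjusted p 4.66e-06), and it was the only factor that stayed called with cells thinned to 1000 UMIs outside the alpha-defensins. Spdef stood at 520 and 452 in fl/fl and 656 and 599 in ΔIEC, with 0.37 ± 0.07 (adjusted p 0.0011). Creb3l4 stood at 451 and 416 against 527 and 487, with 0.36 ± 0.07 (adjusted p 0.0013), and Creb3l1 at 452 and 434 against 507 and 567, with 0.35 ± 0.08 (adjusted p 0.00273). The genotypes did not overlap for these 4 factors. Sox9 was called at 0.29 ± 0.08 (adjusted p 0.0173) although its equal-depth levels overlapped, with 222 and 189 in fl/fl and 217 and 255 in ΔIEC. The Sox9 call was lost without fl/fl replicate 1 (0.26, adjusted p 0.105) and without ΔIEC replicate 2 (0.18, adjusted p 0.0859), and the Creb3l1 call without fl/fl replicate 2 (0.26, adjusted p 0.087).

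In the same cells Atoh1 gave a log2 fold change of 0.15 ± 0.07 (95% interval 0.01 to 0.29, adjusted p 0.119) and Klf4, at 511 and 446 against 525 and 524 UMIs per 1000 cells, 0.11 ± 0.07 (adjusted p 0.276). Gfi1, at 33.7 and 35.3 against 41.6 and 39.3, gave -0.02 ± 0.12 (adjusted p 0.951). Bhlha15 gave -0.11 ± 0.12 (95% interval -0.36 to 0.14, adjusted p 0.578) and Spib -0.24 ± 0.41 (adjusted p 0.737). Their intervals leave room for a difference in either direction for all but Atoh1.

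Cycling cells had 4 factors higher in ΔIEC of the 9 that passed the filter on low counts, where 3.61% of 9812 genes were called, 2.4% higher and 1.21% lower. At equal depth 7 of the 9 tested factors lay above fl/fl in both ΔIEC libraries and 1, Klf4, lay below it (392 and 375 against 329 and 313), where 18.5% and 22.2% of the tested genes did. Spib, which was not tested, stood at 0 UMIs in both fl/fl libraries and at 1.81 and 3.68 per 1000 cells in ΔIEC. Creb3l4 stood at 228 and 243 UMIs per 1000 cells in fl/fl and 273 and 317 in ΔIEC, with 0.52 ± 0.11 on the log2 scale (adjusted p 0.00406). Spdef stood at 329 and 243 against 373 and 363, with 0.49 ± 0.10 (adjusted p 0.00198). Foxa3 stood at 507 and 457 against 609 and 643, with 0.44 ± 0.08 (adjusted p 0.00136), and Creb3l1 at 323 and 341 against 369 and 361, with 0.35 ± 0.09 (adjusted p 0.0317). The values of ΔIEC lay above those of fl/fl without overlap for each of them. None of the 4 was called by DESeq2, with cells thinned to 3800 UMIs, or with marker limits 2 times as high (6 of the 9 had an unadjusted p under 0.05 by edgeR). Without fl/fl replicate 2 only Foxa3 was called, and Creb3l1 was also lost without fl/fl replicate 1 (adjusted p 0.133) and without ΔIEC replicate 2 (adjusted p 0.127). Goblet markers in cycling cells had medians of 104 and 83 UMIs of 3800 in fl/fl and 108 and 117 in ΔIEC. As given above, many cycling cells also met the rule of another class. The part of either in these differences was not tested.

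In the 3 small classes no factor passed the adjusted threshold. In enterocyte-like cells, 0 of the 8 tested factors were called by edgeR or DESeq2 and 5 had an unadjusted p under 0.05, where 1.93% of 7098 genes were called, 1.27% higher and 0.662% lower. At equal depth 4 of the 8 tested factors (Atoh1, Sox9, Creb3l1 and Creb3l4) lay above fl/fl in both ΔIEC libraries and none below it, where 22.8% and 18.2% of the tested genes did; Gfi1 and Spib, which were not tested, had 0 UMIs in fl/fl. Atoh1 was at 23.1 and 19.9 CPM in fl/fl and 33.3 and 36.9 CPM in ΔIEC there, a log2 fold change of 0.70 ± 0.24 (adjusted p 0.189), and Creb3l4 gave 0.87 ± 0.27 (adjusted p 0.114). With the same lower limit of 9670 UMIs for all libraries, 6 of 7 tested factors were called higher, but this left 19 and 30 enterocyte-like cells in ΔIEC. The share of all genes called under that limit is not given here. Creb3l4 was called without fl/fl replicate 1 (1.30, adjusted p 0.0303) and with the replicate number as a block (0.88, adjusted p 0.0475), and Spdef without ΔIEC replicate 1 (0.88, adjusted p 0.0451). Tuft-like cells, with 13 to 83 cells per library, had 0 of 8 called by edgeR or DESeq2 and 3 with an unadjusted p under 0.05 (Atoh1, Foxa3 and Spib), where 2.08% of 3314 genes were called, 1.09% higher and 0.996% lower. At equal depth 6 of the 8 tested factors lay above fl/fl in both ΔIEC libraries and none below it, where 18.6% and 20.6% of the tested genes did, and Gfi1, which was not tested, had 0 UMIs in fl/fl. Spib in tuft-like cells was at 77.4 and 65.4 CPM in fl/fl and at 120 and 103 CPM in ΔIEC, a log2 fold change of 0.66 ± 0.30 (95% interval 0.02 to 1.30, adjusted p 0.366).

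Enteroendocrine-like cells had 0 of 8 called by edgeR or DESeq2 and 1 with an unadjusted p under 0.05, where 0.169% of 3544 genes were called, 0.0847% in each direction. At equal depth 3 factors lay above fl/fl in both ΔIEC libraries and 1 below it, where 21.9% and 16.2% of the tested genes did. The factor below fl/fl and the one with the low p were the same, Bhlha15, at 47.4 and 38.1 CPM in fl/fl and 10.4 and 5.79 CPM in ΔIEC, a log2 fold change of -2.41 ± 0.71 (95% interval -3.99 to -0.82, adjusted p 0.484). It rested on 5 and 3 UMIs in the 9 and 6 fl/fl cells and on 6 and 4 UMIs in the 83 and 68 ΔIEC cells. The genotypes did not overlap, and at equal depth the 2 fl/fl values came from 1 UMI each.

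Paneth-like and goblet-like cells were then compared with each other within each genotype, with both sums of a library in the same model. Relative to the typical gene, all 10 factors differed in fl/fl, 4 higher in Paneth-like cells and 6 lower, where 49.3% of 12424 genes were called, 23.3% higher and 26% lower. In ΔIEC 9 of the 10 differed, 4 higher and 5 lower, where 49.5% were called, 24% higher and 25.5% lower. Bhlha15 was the factor most in favour of Paneth-like cells in fl/fl, at 1.85 ± 0.09 on the log2 scale (adjusted p 1.22e-17), and stood at 1.55 ± 0.07 in ΔIEC (adjusted p 1.67e-18). Spib was higher by 1.44 ± 0.32 in fl/fl (adjusted p 0.000294) and by 1.60 ± 0.24 in ΔIEC (adjusted p 1.09e-06), from at most 104 UMIs per library in Paneth-like cells, and its fl/fl call was lost without replicate 1 (0.73, adjusted p 0.141). Sox9 was higher by 0.56 ± 0.06 and 0.81 ± 0.04 (adjusted p 1.86e-10 and 2.01e-17). Of these 3, Bhlha15 alone kept its direction in both genotypes when scaled by library size only. In fl/fl, 8 of 10 tested enteroendocrine and 2 of 2 tested tuft factors, lists read below by genotype, were also higher in Paneth-like cells. Their median log2 differences were 1.43 and 1.73. In ΔIEC they were again 8 of 10 and 2 of 2, with 1.12 and 1.51. Scaled by library size only, 0 of either list were called higher in fl/fl, and 1 enteroendocrine factor in ΔIEC. Such a rise was not particular to these 3 factors.

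The goblet side held Klf4, at -1.58 ± 0.05 in fl/fl and -1.34 ± 0.05 in ΔIEC (adjusted p 3.59e-23 and 1.05e-22), and Creb3l1, at -1.47 ± 0.05 and -0.93 ± 0.04 (adjusted p 1.59e-21 and 1.32e-18). Gfi1 stood at -0.75 ± 0.13 and -0.43 ± 0.10, Atoh1 at -0.66 ± 0.05 and -0.21 ± 0.04, and Spdef at -0.39 ± 0.05 and -0.21 ± 0.04, with adjusted p of at most 0.000477. These 5 factors were lower in Paneth-like cells in both genotypes and under the 3 scalings tried, although the Gfi1 call was lost with either thinning and the ΔIEC calls of Atoh1 (-0.099), Spdef (-0.036) and Gfi1 (-0.12) were lost with 1 UMI limit for all libraries. Creb3l4 was lower in fl/fl, at -0.38 ± 0.05 (adjusted p 3.85e-08), and higher in ΔIEC, at 0.11 ± 0.04 (adjusted p 0.0146), a call lost without ΔIEC replicate 1 (0.086, adjusted p 0.208) and by DESeq2 (0.12, adjusted p 0.292). Foxa3 was higher by 0.14 ± 0.04 in fl/fl (adjusted p 0.00601), lost without replicate 1 or 2 (adjusted p 0.101 and 0.136), and gave 0.06 ± 0.04 in ΔIEC (adjusted p 0.205).

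The choice of scale is large in this comparison. Scaled by library size only, the median of all genes moved by -1.75 in fl/fl and by -1.08 in ΔIEC on the log2 scale, so that 1.49% and 2.35% of the called genes were higher in Paneth-like cells, with 168 higher and 11104 lower in fl/fl and 261 higher and 10841 lower in ΔIEC. Sox9 then stood at -1.18 and Foxa3 at -1.61 in fl/fl, and Sox9 at -0.27, Creb3l4 at -0.97 and Foxa3 at -1.03 in ΔIEC. Spib was at -0.30 in fl/fl on that scale (adjusted p 0.419). Bhlha15 stayed above 0, at 0.11 in fl/fl (adjusted p 0.356) and 0.47 in ΔIEC (adjusted p 6.46e-07).

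**Figure D4:**
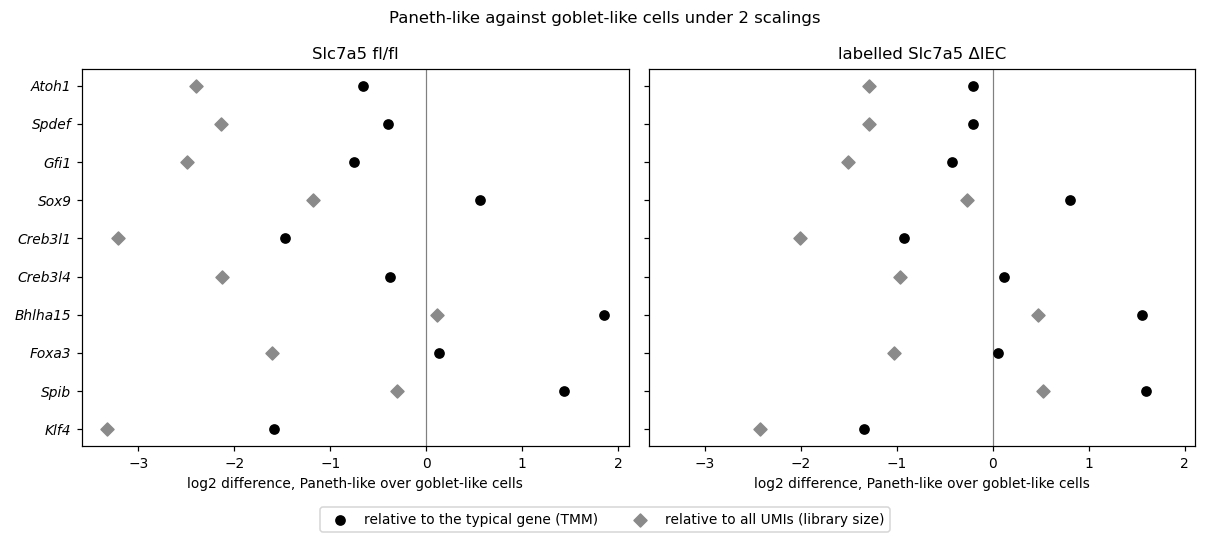
Log2 difference of Paneth-like over goblet-like cells (x axis) for each factor (y axis) in fl/fl (left) and ΔIEC (right), relative to the typical gene (black circles) and scaled by library size only (grey diamonds). Under library size the fl/fl values of Sox9 and Foxa3 lie below 0, at -1.18 and -1.61, while Bhlha15 lies above 0 on both scales.

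The test of the difference itself asked whether ΔIEC over fl/fl differed between Paneth-like and goblet-like cells. It was larger in Paneth-like cells for 6 of the 10 factors and smaller for none, where 13.3% of 12424 genes were called, 6.83% larger and 6.5% smaller. The difference of log2 fold changes was 0.54 ± 0.07 for Creb3l1 (95% interval 0.40 to 0.68, adjusted p 7.59e-07), 0.50 ± 0.06 for Creb3l4 (adjusted p 3.58e-07) and 0.45 ± 0.06 for Atoh1 (adjusted p 2.18e-06). For Klf4 it was 0.24 ± 0.07 (adjusted p 0.0147), for Sox9 0.24 ± 0.07 (adjusted p 0.0175) and for Spdef 0.18 ± 0.06 (adjusted p 0.0469). The first 3 were also called by DESeq2 and with the 40% limit for Paneth-like cells, and the other 3 were not. Sox9, Spdef and Klf4 were also lost without fl/fl replicate 1 and without ΔIEC replicate 2, Sox9 also without ΔIEC replicate 1 (adjusted p 0.0592) and Spdef without fl/fl replicate 2 (adjusted p 0.108), while Bhlha15 was called without ΔIEC replicate 1 (-0.44, adjusted p 0.0298). Foxa3, which was called in both classes, differed by -0.08 ± 0.05 (95% interval -0.19 to 0.03, adjusted p 0.393), and Bhlha15 by -0.30 ± 0.13 (adjusted p 0.146). With cells thinned to 1000 UMIs outside the alpha-defensins, 0 factors passed (edgeR; the values for Creb3l1 and Creb3l4 were 0.51 and 0.51), and Creb3l1 and Creb3l4 passed with cells thinned to 3800 UMIs, where Klf4 turned to -0.043.

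Other regulators were read from lists that had been put together with earlier results of these data known, and they are given by counts beside the factors. Among 13 other factors of secretion and endoplasmic reticulum stress in Paneth-like cells, 8 were higher and 1 was lower, where 20.1% and 19.8% of all tested genes were, with a median log2 fold change of 0.39. Scaled by library size only, 12 were higher and 1 lower, with a median of 1.02 where that of all genes was 0.62. Ddit3 (CHOP), a factor of the integrated stress response, was at 8.25 and 6.99 CPM in fl/fl and 93.9 and 76.9 CPM in ΔIEC, a log2 fold change of 3.48 ± 0.10 (adjusted p 3.45e-17). Atf4, which acts before it, was at 54.0 and 50.7 CPM against 112 and 108 CPM, with 1.07 ± 0.07 (adjusted p 5.44e-11). Creb3l3, a relative of Creb3l1 and Creb3l4 known from liver and enterocytes, was the lower one, at 7.24 and 7.62 CPM against 2.41 and 3.33 CPM, with -1.32 ± 0.11 (adjusted p 5.75e-09). In goblet-like cells 6 of the 13 were higher and 2 lower, where 10.9% and 10.8% of all tested genes were, with Ddit3 at 3.37 ± 0.09, Atf4 at 1.08 ± 0.07 and Creb3l3 at -1.13 ± 0.21. In cycling cells 3 were higher, where 2.4% of all tested genes were: Ddit3 at 2.32 ± 0.16, Ern2, the IRE1 sensor of mucous cells, at 0.50 ± 0.10 and Atf4 at 0.49 ± 0.09. In enterocyte-like cells Ddit3 was called at 2.14 ± 0.26 and Sox4 at -1.72 ± 0.37, and in tuft-like cells Ddit3 at 1.99 ± 0.39 and Atf4 at 1.27 ± 0.27. The directions of these named genes were the same when scaled by library size only. By the test of the difference, Ern2 (0.55 ± 0.07), Foxa2 (0.47 ± 0.14) and Xbp1 (0.22 ± 0.06) moved more in Paneth-like than in goblet-like cells.

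Of 10 genes of the Notch pathway, 1 was higher and 3 were lower in Paneth-like cells, a share near the 39.9% of all tested genes called there. The ligand Dll1 was at 4.79 and 4.95 CPM in fl/fl and 3.02 and 3.17 CPM in ΔIEC (-0.65 ± 0.11, adjusted p 5.26e-05), and the ligand Dll4 at 3.57 and 3.65 against 3.83 and 4.86 CPM (0.30 ± 0.12, adjusted p 0.0477). The receptor Notch2, under 0.4 CPM in all libraries, gave -1.14 ± 0.39 (adjusted p 0.0244). In goblet-like cells 3 of the 9 tested were lower, with Notch1 at -1.70 ± 0.31, Dll1 at -0.62 ± 0.09 and Hes6 at -0.23 ± 0.07, and none was higher, where 10.8% and 10.9% of all tested genes were. Dll1 was also lower in cycling cells, at -0.56 ± 0.15. Scaled by library size only, Dll1 in Paneth-like cells stood at -0.03 (adjusted p 0.871), so its fall in that class holds relative to the typical gene. In goblet-like cells it stood at -0.66 on that scale. Called higher in Paneth-like cells on that scale were 5 of the 10 Notch genes, beside 8795 of all 12492 genes.

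Among 10 tested enteroendocrine factors, 1 was lower in Paneth-like cells, Neurog3 at -1.03 ± 0.24 (adjusted p 0.00159), and in goblet-like cells none of 7 passed. Neurod1, of this list, was also a marker for the enteroendocrine-like class. Neither of the 2 tested tuft factors was called in Paneth-like cells, and none of the 3 passed the filter in goblet-like cells. Of 15 factors of absorptive and intestinal identity, 2 were higher and 4 lower in Paneth-like cells, again near the 39.9% of all tested genes, led by Maf at -0.85 ± 0.14, Nr5a2 at -0.81 ± 0.19 and Ehf at 0.55 ± 0.07. In goblet-like cells 2 were higher and 2 lower, where 10.9% and 10.8% of all tested genes were. These were led by Maf at -0.71 ± 0.25, Gata6 at -0.35 ± 0.08 and Klf3 at 0.35 ± 0.07. Of 8 genes of secretory cargo and its machinery that general knowledge names as targets of the factors, 1 was higher and 3 were lower in Paneth-like cells, beside 20.1% and 19.8% of all tested genes. There Muc2, the gel-forming mucin, was at 1363 and 1344 CPM in fl/fl and 1705 and 1879 CPM in ΔIEC (0.40 ± 0.10). Sec24d, a coat protein of export vesicles, stood at -0.51 ± 0.08 and Tff3, a trefoil peptide, at -0.45 ± 0.13. Under library size scaling, 7 of 10 enteroendocrine, 11 of 15 absorptive and 4 of 8 cargo genes were called higher in Paneth-like cells and none lower. On that scale 8795 of all 12492 genes were called higher and 454 lower. Sec24d stood there at 0.11 and Tff3 at 0.17. Muc2 and Tff3, both in the cargo list, were also used to name goblet-like cells. In that class 1 of the 7 tested cargo genes was called, Muc2 at 0.37 ± 0.07, where 21.7% of all tested genes were. Muc2 was also called higher in cycling cells (0.75 ± 0.07), enterocyte-like cells (0.89 ± 0.11) and tuft-like cells (0.99 ± 0.17). The median of the 11 goblet markers in enterocyte-like cells was 34.5 and 36 UMIs of 3800 in fl/fl and 37 and 50 in ΔIEC, beside the larger share of goblet-like cells in the ΔIEC libraries given above; the part of either in the Muc2 values or in those of the factors was not tested.

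Likeness between genes was measured as Pearson's r of log2(CPM + 1) over the 24 sums of library and class, which share libraries and depth, and is given as a description. Spdef and Foxa3 were each other's nearest gene, at r = 0.95. The gene nearest to Atoh1 was Ergic1, of the compartment between endoplasmic reticulum and Golgi, at 0.94, followed by Srm and Pdia5, and Pdia5 was also among the 3 nearest genes of Spdef and Creb3l1. Spib ran with the tuft genes Dclk1, Sh2d6 and Sh2d7 at 0.97 each, of which the first pair had been used to name the tuft-like class. Klf4 ran with Plscr1, Syngr2 and Tmsb10 at 0.97 to 0.96, Sox9 with Phlda1, Pla2g12a and Zfhx3, and Creb3l4 and Gfi1 both had Ttc39a first. Bhlha15 had no close gene over these sums: its nearest, Slc23a3, reached 0.62, and its r with the other 9 factors ran from -0.00014 to 0.39. Each sum counted alike, and some rested on few Bhlha15 UMIs, with 8 in fl/fl enteroendocrine-like cells over both libraries. The part of such sums in its low r was not tested.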

How the data were processed

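The authors deposited raw UMI counts, 1 matrix of 27998 genes by called cell barcodes per library, with no normalization and no cell labels. The processing notes name Cell Ranger 2.1.1 and the build mm10, and the annotation is not given in the sources used here. Gene IDs and positions were joined to GENCODE M21 (GRCm38), in which no other counted gene overlaps any of the 10 factors, and promoters are from RefSeq (GRCm38.p6).

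All deposited cells (26498) were kept. Alpha-defensins were the 13 symbols starting with Defa in the files, against 22 in GENCODE M21, used as an alternative. Cells under 20% were classed by UMIs of a marker list after thinning to 3800 UMIs per cell: goblet-like from 150, enteroendocrine-like from 15, tuft-like from 5, cycling from 5 and enterocyte-like from 30, and a cell that met several rules went to the class it exceeded most. The remaining 3007 cells, and 2732 cells between 20% and 30%, entered no class. No doublet caller was run. As an alternative, cells that met more than 1 rule were left out.

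Raw UMI counts were summed per library and class, and edgeR 4.0.16 (glmQLFTest, a quasi-likelihood test; R 4.3.3, TMM, filterByExpr, two-sided) was fitted to the sums, with Benjamini-Hochberg adjustment over all genes tested and a threshold of 0.05. The comparison of classes used library as a block. The standard error is the size of the log2 fold change over the square root of F. Alternatives were DESeq2 1.42.0, other scalings, filters, thinning to 3800 UMIs or to 1000 UMIs outside the alpha-defensins, a UMI limit common to all libraries, stricter class limits, the replicate block and each library left out. Chosen after seeing the data were the classes by the later defensin symbols and the restriction to cells of 40 to 50%. Thinned levels carry exact Poisson and Clopper-Pearson 95% intervals, and a count of 0 allows up to 3 counts; both cover counting error only. Tested on simulated counts for Paneth-like cells, 72.7% of genes changed 1.5-fold and 98.4% of those changed 4-fold were recovered. At 1.5-fold the share was 47.6% in goblet-like, 49.1% in cycling, 39.7% in enterocyte-like, 7.41% in tuft-like and 3.17% in enteroendocrine-like cells and 25.4% for the difference between classes.

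The factors and gene lists were chosen with earlier results of these data known. The text names the 10 factors, up to 3 largest called changes per list and class, and the 3 nearest genes of each factor among those with a mean of at least 10 CPM. Scripts ran in Python 3.11.15.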

Additional observations from a re-analysis of the deposited data

Results flagged for a closer look

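For 6 factors the difference between genotypes was larger in Paneth-like than in goblet-like cells by the test of that difference (edgeR, library as a block, adjusted p under 0.05). Of the 12424 genes tested, 13.3% were called, 6.83% larger and 6.5% smaller. The differences of the log2 fold changes were 0.54 for Creb3l1, 0.50 for Creb3l4, 0.45 for Atoh1, 0.24 for Sox9, 0.24 for Klf4 and 0.18 for Spdef. The number of cells and their depth also differed between the genotypes in both classes, with Paneth-like medians of 46965 and 52851.5 against 13782 and 20159 UMIs and goblet-like medians of 10312.5 and 11287.5 against 5599 and 7882 UMIs. With every cell thinned to 3800 UMIs, only the values of Creb3l1 and Creb3l4 stayed past the threshold. Groups of 2 libraries are too small to look for a library far from its group.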

How the results depend on the processing

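Of 120 counts under alternatives, 101 stayed within 1.5 times the count reported and 19 did not. Nearly all are counts of called factors, and the rest count levels with both ΔIEC libraries above both fl/fl libraries. A count of 0 that stayed at 0 was taken as unchanged, and a change of sign did not enter. The shares of all genes called under these alternatives are not given here, apart from the numbers printed for library size. In goblet-like cells 5 became 3 with cells thinned to 3800 UMIs and 1 with 1000 UMIs outside the alpha-defensins. In cycling cells 4 became 0 with either thinning, with DESeq2 and with marker limits 2 times as high. In enterocyte-like cells 0 became 6 with 1 UMI limit for all libraries, and 1 without a filter. For the difference between classes 6 became 0 with 1000 UMIs outside the alpha-defensins, 2 with 3800 UMIs, and 3 each with the 40% limit, with DESeq2 and without the library block; the cause of these changes was not tested. When single libraries were dropped, which leaves 1 library in a genotype and assumes that it varies like those of the other, the counts ran from 8 to 9 in Paneth-like, 4 to 5 in goblet-like, 1 to 5 in cycling, 0 to 1 in enterocyte-like and 0 in the other 2 classes, from 8 to 10 between classes in fl/fl, 8 to 9 in ΔIEC and 3 to 6 for their difference. In cycling cells it was 1 without fl/fl replicate 2. For the difference it was 3 (Atoh1, Creb3l1 and Creb3l4) without ΔIEC replicate 2 and without fl/fl replicate 1, and in enterocyte-like cells 1 without fl/fl replicate 1 (Creb3l4) and 1 without ΔIEC replicate 1 (Spdef).

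Scaling by library size only turned the sign of Bhlha15 (0.23) and Spib (0.54) by genotype in Paneth-like cells, where 8795 genes were then called higher and 454 lower and the median of all genes moved by 0.62. It turned Sox9 (-1.18), Foxa3 (-1.61) and Spib (-0.30) between classes in fl/fl, Sox9 (-0.27), Creb3l4 (-0.97) and Foxa3 (-1.03) in ΔIEC, and Bhlha15 (0.37) and Foxa3 (0.58) in the difference between classes, where 99.4% of called genes were higher and the median moved by 0.65. Klf4 in that difference turned to -0.043 at 3800 UMIs. In tuft-like cells 36 genes were called higher and 33 lower, and 33 and 65 under this scaling, in cycling cells 235 and 119 against 188 and 200, and in enteroendocrine-like cells 3 and 3 against 2 and 1.

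Same-numbered libraries did not deviate together (correlations of 0.034, 0.027, -0.019 and -0.018 in the 4 largest classes), so the numbers are not taken to pair the libraries. With the replicate number as a block, 8 factors were called in Paneth-like, 5 in goblet-like, 5 in cycling, 1 in enterocyte-like and 0 in enteroendocrine-like and tuft-like cells. The shares of all genes called with this block are not given here, so a general change in calls cannot be told apart. Gfi1 in Paneth-like cells became called under 4 alternatives: library size only (0.94), the common UMI limit, the later defensin symbols and without ΔIEC replicate 1. Bhlha15 there lost its call with 1000 UMIs outside the alpha-defensins, at -0.49 (adjusted p 0.0527).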

Other observations

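Paneth-like cells with 2 or more UMIs of pancreatic trypsinogens numbered 0 and 0 in fl/fl and 86 and 95 in ΔIEC. Atoh1 stood at 233 and 253 UMIs per 1000 of these cells and at 199 and 224 per 1000 ΔIEC Paneth-like cells with no such UMI. Creb3l1 stood at 93.0 and 105 against 139 and 162, and Creb3l4 at 314 and 274 against 263 and 281. The Poisson intervals of the trypsinogen cells, 142 to 359 and 162 to 376 for Atoh1, cover the values of the other cells.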
